A study of Mus musculus with 64 samples.

Results

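The genes described here encode 10 lectin-like receptors of natural killer (NK) cells: the Ly49 receptors Klra3, Klra4, Klra7, Klra8 and Klra9, NKG2A (Klrc1), its partner CD94 (Klrd1), and Klre1, Klri2 and Klrg1. They were found by symbol among the 36273 genes of the raw count table, and all 10 passed the filter on low counts that left 10723 genes for testing. Messenger RNA 3′ ends were sequenced in 64 libraries of mouse spleen NK cells grown for 5 days with small amounts of IL-2 and of IL-15 complexed with IL-15Ra. The cells came from 3 kinds of mice. EP2/EP4KO mice were GzmbCre Ptger2-/-Ptger4fl/fl, so that they lacked the prostaglandin receptor EP2 throughout and lost EP4 where the granzyme B Cre was active. EP2KO mice were Ptger2-/-Ptger4fl/fl and therefore carried the same floxed, undeleted Ptger4, and WT mice were C57BL/6J. Cells of each genotype received prostaglandin E2 (PGE2, 100 ng/ml), conditioned medium (CM) of BRAFV600E cells that make PGE2, or neither (untreated). They were treated for 1 h and then stimulated for 4 h with an antibody to the activating receptor NK1.1, or treated for 5 h without stimulation. This gave 18 groups, with 3 libraries in each EP2/EP4KO group and 4 in each EP2KO and WT group, apart from unstimulated PGE2-treated WT cells, of which 2 libraries were analysed. The labels do not say whether the libraries of a group came from separate mice or cultures, so the p-values measure the spread between these libraries, which may be technical.

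NK cells weigh signals from inhibitory and activating receptors before they kill a target or secrete cytokines. Many of these receptors are C-type lectin-like proteins encoded side by side in the NK gene complex. In mice the inhibitory Ly49 receptors and the NKG2A and CD94 pair read MHC class I and Qa-1 on other cells, which restrains the NK cell. Activating Ly49 receptors signal through the adaptor DAP12 (Tyrobp).

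Of the 10 genes, 9 lay within 759.7 kb of chromosome 6 (GRCm38, GENCODE M21). In order along the chromosome these were Klre1 (chr6:129577905-129585827), Klrd1 (chr6:129591782-129598775), Klrc1 (chr6:129666015-129678973), Klri2 (chr6:129729041-129740484), Klra4 (chr6:130043731-130067271), Klra8 (chr6:130115226-130129898), Klra9 (chr6:130178675-130193112), Klra7 (chr6:130218605-130233322) and Klra3 (chr6:130323289-130337574). Klrg1 (chr6:122270596-122282882) lay apart on the same chromosome. Klre1 and Klrd1 were on the plus strand and the other members on the minus strand. RefSeq promoter windows of the GRCm38.p6 assembly, running from 250 bases before to 50 bases after a gene's start, matched 7 of the 10 members, with 2 windows each for Klre1, Klra8 and Klra7, for which RefSeq gives 2 starts. The first of these is used where a window is printed or aligned. The first window of Klra7 (chr6:130231638-130231937) lies inside the GENCODE gene. Its second window, at the GENCODE start, was not aligned, so its likeness to the other Klra windows was not measured. Among the first windows, 2 pairs stood out as close copies. They are printed to show how alike these neighbouring genes are. The windows of Klra4 and Klra8, which both encode activating receptors, aligned at 86% identity. Those of Klra9 and Klra3, which both encode inhibitory receptors, aligned at 85% identity. Capitals in the first 4 sequences mark bases that differ from the other window of the pair or have no partner in the alignment, 41 per window for the first pair and 29 for the second.
Klra4, chr6:130067222-130067521, minus strand: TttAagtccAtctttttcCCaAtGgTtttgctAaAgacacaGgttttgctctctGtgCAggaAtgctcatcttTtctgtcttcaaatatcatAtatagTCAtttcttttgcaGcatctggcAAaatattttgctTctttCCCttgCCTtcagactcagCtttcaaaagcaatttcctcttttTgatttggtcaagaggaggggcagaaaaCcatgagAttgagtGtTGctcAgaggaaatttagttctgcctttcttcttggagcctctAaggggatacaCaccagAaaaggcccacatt
Klra8, chr6:130129849-130130148, minus strand: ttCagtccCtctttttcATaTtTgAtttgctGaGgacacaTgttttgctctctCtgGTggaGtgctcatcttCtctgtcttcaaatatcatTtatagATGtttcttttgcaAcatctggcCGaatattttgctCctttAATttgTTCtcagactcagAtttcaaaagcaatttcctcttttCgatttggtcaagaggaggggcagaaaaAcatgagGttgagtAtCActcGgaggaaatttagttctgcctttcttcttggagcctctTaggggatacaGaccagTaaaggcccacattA
Klra9, chr6:130193063-130193362, minus strand: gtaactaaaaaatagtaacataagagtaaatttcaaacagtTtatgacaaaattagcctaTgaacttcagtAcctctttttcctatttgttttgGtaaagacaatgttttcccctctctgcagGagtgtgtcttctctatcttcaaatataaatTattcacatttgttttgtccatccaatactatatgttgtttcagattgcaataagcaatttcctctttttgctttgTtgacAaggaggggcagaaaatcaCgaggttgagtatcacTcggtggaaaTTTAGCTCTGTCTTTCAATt
Klra3, chr6:130337577-130337876, minus strand: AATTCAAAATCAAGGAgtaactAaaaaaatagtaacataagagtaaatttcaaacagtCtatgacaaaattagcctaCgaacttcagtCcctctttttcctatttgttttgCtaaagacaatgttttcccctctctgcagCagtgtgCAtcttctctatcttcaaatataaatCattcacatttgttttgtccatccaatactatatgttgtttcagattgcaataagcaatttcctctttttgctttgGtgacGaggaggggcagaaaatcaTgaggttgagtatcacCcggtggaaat
The first window of Klre1, the member whose level fell under stimulation in untreated cells of all 3 genotypes and in 4 of the 6 treated comparisons, is printed with its TGTGGT motif, the core bound by RUNX factors, in capitals.
Klre1, chr6:129577963-129578262, plus strand: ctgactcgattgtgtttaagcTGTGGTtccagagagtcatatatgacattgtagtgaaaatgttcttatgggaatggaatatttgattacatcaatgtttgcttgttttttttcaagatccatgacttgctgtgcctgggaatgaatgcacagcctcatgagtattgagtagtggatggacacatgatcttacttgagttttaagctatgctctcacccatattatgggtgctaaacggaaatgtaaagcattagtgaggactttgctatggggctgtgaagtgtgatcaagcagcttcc
In RefSeq's annotation this motif was 229 bases before the first start of Klre1 and 87 bases before that of Klrc1 (on the other strand). The second window of Klre1 did not hold it, and the GENCODE start of Klre1 lies before both windows, so that in GENCODE the motif is inside the gene. Of 32841 windows over all genes, 16.8% held it on either strand. The cAMP response element TGACGTCA (1.79% of windows) and the AP-1 site TGANTCA (7.81% of windows) were not found in the members' windows. The shorter TGACG, which also lies within TGACGTCA and which 20.8% of windows held, was found in that of Klra3 alone, at the RefSeq start itself. A match describes letters only.

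Transcripts of these genes are alike at their 3′ ends too, where the libraries were read. Of all 50-base stretches in the last 500 bases of its annotated transcripts, Klra9 shared 49.4% with transcripts of other genes, Klrc1 43.5% (most with Klrc2), Klra3 31.5% (most with Klra9), Klra7 22.1% (all with Klra13-ps), Klra8 13.1%, Klra4 4.66% and Klri2 2.66%. Klrd1, Klre1 and Klrg1 shared none. How the submitters assigned such reads is not stated in the sources at hand, so values of Klra9, Klrc1, Klra3 and Klra7 are uncertain as to which gene they count.

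Libraries held 753973 to 1693750 counts (median 1256163). Counts per library ranged from 13 (the lowest, for Klrg1) to 1108 (the highest, for Klra4), and values below are CPM after scaling (counts relative to the library's scaled total, per 1e6). Ncr1, which encodes the NK receptor NKp46, was present in all libraries at 67.1 to 325 CPM. Summed markers of other cells ranged over libraries from 37.17 to 825.1 CPM for neutrophils, 42.42 to 204.3 CPM for myeloid cells, 366.6 to 776.6 CPM for T cells (mostly Trbc1 and Trbc2), 32.83 to 122.6 CPM for B cells and 0 to 39.9 CPM for erythroid cells. Xist was at 29.9 to 62.5 CPM in EP2/EP4KO libraries, against 475.3 to 764.9 CPM in EP2KO and 497 to 932.8 CPM in WT libraries, so the EP2/EP4KO mice also had another sex, and genotype and sex cannot be told apart. The 3′ tags of Ptger2 and Ptger4 were detected in every genotype (Ptger4 at 31.3 to 123.4 CPM in EP2/EP4KO, 14.1 to 67.4 CPM in EP2KO and 9.51 to 80.3 CPM in WT libraries) and may lie outside the deleted parts, so they check neither label.

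The first comparison asks what stimulation through NK1.1 does to these receptors in untreated cells. Their levels were lower in stimulated than in unstimulated cells: 29 of 30 log2 fold changes over the 3 genotypes were negative. As a share of all raw counts, the 10 genes together took 0.245% in stimulated and 0.37% in unstimulated EP2/EP4KO cells, 0.202% and 0.349% in EP2KO cells, and 0.236% and 0.364% in WT cells. These shares lack the scaling used for CPM and fold changes, so they are not on the same footing. By edgeR's quasi-likelihood test with Benjamini-Hochberg adjustment over all genes (adjusted p under 0.05), 4 of 10 members fell in EP2/EP4KO cells, where 14.2% of all genes fell, 7 fell in EP2KO cells, where 15.3% of all genes fell, and 5 fell in WT cells, where 19.3% of all genes fell. None rose. The members' median log2 fold changes were -0.47, -0.62 and -0.46 in EP2/EP4KO, EP2KO and WT cells, beside medians near 0 over all genes tested. In these bulk libraries, fewer cells that carry a receptor and less of its RNA per cell cannot be told apart.

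The genes that fell in all 3 genotypes were Klrd1, Klre1, Klra8 and Klra9. Klre1, a receptor that pairs with Klri1 or Klri2, had 349.2, 324.3 and 254.9 CPM in stimulated EP2/EP4KO libraries, against 521.1, 511.3 and 468.3 CPM in unstimulated ones. In EP2KO cells Klre1 had 222.9, 276.0, 280.7 and 200.5 CPM with stimulation, against 428.7, 552.1, 504.3 and 433.9 CPM without. In WT cells it had 290.3, 295.7, 310.2 and 330.5 CPM with stimulation, against 521.3, 475.3, 540.7 and 525.1 CPM without. In each genotype every stimulated library lay below every unstimulated one. The log2 fold changes of Klre1 were -0.69 ± 0.16 in EP2/EP4KO cells (SE, adjusted p = 0.00055, n = 3 each), -0.97 ± 0.14 in EP2KO cells (adjusted p = 9.29e-08, n = 4 each) and -0.75 ± 0.14 in WT cells (adjusted p = 1.34e-05, n = 4 each, edgeR).

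Klrd1, the CD94 chain that pairs with NKG2 receptors, had 399.1, 359.2 and 312.7 CPM in stimulated EP2/EP4KO libraries, against 556.2, 604.0 and 472.7 CPM in unstimulated ones. In EP2KO cells it had 234.9, 276.7, 362.1 and 206.7 CPM with stimulation, against 482.9, 535.8, 560.9 and 430.1 CPM without. In WT cells it had 329.6, 256.6, 391.1 and 382.1 CPM with stimulation, against 649.8, 505.5, 582.3 and 566.4 CPM without. The groups did not overlap in any genotype, and the log2 fold changes were -0.61 ± 0.17, -0.90 ± 0.15 and -0.76 ± 0.15 (SE) in EP2/EP4KO, EP2KO and WT cells, with adjusted p of 0.00404, 1.72e-06 and 2.5e-05 (edgeR). Klrc1, the inhibitory NKG2A chain of the same pair, had 83.14, 72.83 and 77.31 CPM in stimulated EP2/EP4KO libraries, against 64.52, 80.88 and 118.3 CPM in unstimulated ones. In WT cells it had 62.74, 108.1, 66.53 and 105.6 CPM with stimulation, against 90.03, 122.4, 94.53 and 102.4 CPM without. The groups overlapped in each genotype, and no Klrc1 difference was called: its log2 fold changes were -0.18, -0.38 and -0.25 in EP2/EP4KO, EP2KO and WT cells (adjusted p = 0.647, 0.172 and 0.372, edgeR). Whether Klrd1 and Klrc1 differ in their response was not tested.

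Among the inhibitory Ly49 receptors, Klra9 (Ly49I) had 120.7, 113.9 and 170.6 CPM in stimulated EP2/EP4KO libraries, against 182.4, 194.4 and 209.5 CPM in unstimulated ones. In EP2KO cells it had 123.8, 122.7, 102.6 and 111.1 CPM with stimulation, against 215.9, 208.9, 215.4 and 210.7 CPM without. In WT cells it had 102.8, 169.2, 125.9 and 132.5 CPM with stimulation, against 174.2, 249.6, 246.7 and 231.2 CPM without. The groups were apart in all 3 genotypes, with the narrowest gap in WT cells and the widest in EP2KO cells. The log2 fold changes of Klra9 were -0.53 ± 0.17, -0.88 ± 0.15 and -0.76 ± 0.15 (SE) in EP2/EP4KO, EP2KO and WT cells (adjusted p = 0.0116, 2.08e-06 and 2.33e-05, edgeR). Without unstimulated EP2/EP4KO replicate 3 the adjusted p was 0.0586, without stimulated replicate 1 it was 0.0765 and without stimulated replicate 2 it was 0.0925. Klra7 (Ly49G) fell by 0.61 in EP2KO cells and by 0.44 in WT cells on the log2 scale (adjusted p = 0.00102 and 0.016), with 312.2, 240.3, 363.2 and 389.9 CPM in stimulated WT libraries, against 467.6, 402.2, 418.8 and 479.7 CPM in unstimulated ones. The lowest of these, stimulated WT replicate 2, decided the WT call of Klra7, which was -0.32 (adjusted p = 0.111) without that library. In EP2/EP4KO cells Klra7 was at -0.43 (adjusted p = 0.054), and at -0.51 (adjusted p = 0.0432) without unstimulated replicate 3. Klra3 (Ly49C), with log2 fold changes of 0.02, -0.35 and -0.41 in EP2/EP4KO, EP2KO and WT cells, did not pass the test in any (adjusted p = 0.954, 0.14 and 0.0763). In WT cells it passed without unstimulated replicate 1 (-0.52, adjusted p = 0.0362) or without stimulated replicate 3 (-0.53, adjusted p = 0.0324).

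Of the 2 activating Ly49 receptors, Klra8 fell in all 3 genotypes and Klra4 passed the test in EP2KO cells alone. Klra8 (Ly49H), which recognises the m157 protein of mouse cytomegalovirus, had 359.3, 373.5 and 299.5 CPM in stimulated EP2/EP4KO libraries, against 513.4, 529.1 and 433.0 CPM in unstimulated ones. In EP2KO cells Klra8 had 227.1, 261.8, 341.8 and 208.3 CPM with stimulation, against 396.5, 390.6, 482.7 and 337.2 CPM without. In WT cells it had 315.2, 272.3, 333.5 and 255.8 CPM with stimulation, against 361.6, 465.7, 426.3 and 386.4 CPM without. The EP2KO groups overlapped, since stimulated replicate 3 was above unstimulated replicate 4, and those of the other genotypes did not. The log2 fold changes of Klra8 were -0.51 ± 0.17, -0.63 ± 0.15 and -0.48 ± 0.15 (SE) in EP2/EP4KO, EP2KO and WT cells (adjusted p = 0.013, 0.00039 and 0.00579, edgeR). In EP2/EP4KO cells the call of Klra8 was lost without unstimulated replicate 2 (-0.46, adjusted p = 0.0594) or stimulated replicate 3 (-0.42, adjusted p = 0.0845). Klra4 (Ly49D) fell in EP2KO cells, with 384.9, 424.3, 657.2 and 352.1 CPM in stimulated libraries, against 609.3, 584.0, 778.8 and 540.3 CPM in unstimulated ones, where both replicates 3 were the highest of their group. Its log2 fold change was -0.47 ± 0.16 (adjusted p = 0.0156), and the call was lost without unstimulated replicate 3 (-0.35, adjusted p = 0.112), stimulated replicate 1 (-0.40, adjusted p = 0.0733) or stimulated replicate 4 (-0.36, adjusted p = 0.0834). In EP2/EP4KO and WT cells Klra4 was at -0.30 and -0.35 (adjusted p = 0.214 and 0.0675), and in WT cells it passed without stimulated replicate 3 (-0.41, adjusted p = 0.0463).

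Klri2, the activating partner of Klre1, had 346.0, 423.6, 466.4 and 300.8 CPM in stimulated EP2KO libraries, against 459.3, 514.1, 589.7 and 403.3 CPM in unstimulated ones. The groups overlapped, and the log2 fold change of -0.36 ± 0.13 (SE, adjusted p = 0.0232, edgeR) lost its call without unstimulated replicate 2 (-0.33, adjusted p = 0.0579) or 3 (-0.26, adjusted p = 0.151), or without stimulated replicate 1 (-0.31, adjusted p = 0.0862) or 4 (-0.26, adjusted p = 0.13). In EP2/EP4KO and WT cells Klri2 was at -0.26 in both (adjusted p = 0.181 and 0.0927). Klrg1, an inhibitory receptor for cadherins and the member with the fewest counts, averaged 28.1, 21.1 and 24.9 CPM in stimulated EP2/EP4KO, EP2KO and WT cells, against 42.7, 32.2 and 37.1 CPM in unstimulated ones. Its log2 fold changes of -0.60, -0.62 and -0.58 were as large as those of called members, but their SEs of 0.27, 0.26 and 0.25 left it short of the threshold (adjusted p = 0.0896, 0.0594 and 0.0571). Klrg1 passed in EP2KO cells without unstimulated replicate 1 (-0.78, adjusted p = 0.0222), stimulated replicate 2 (-0.75, adjusted p = 0.0412) or stimulated replicate 3 (-0.77, adjusted p = 0.0314), and in WT cells without unstimulated replicate 2 (-0.65, adjusted p = 0.0488) or stimulated replicate 1 (-0.75, adjusted p = 0.0247).

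**Figure D1:**
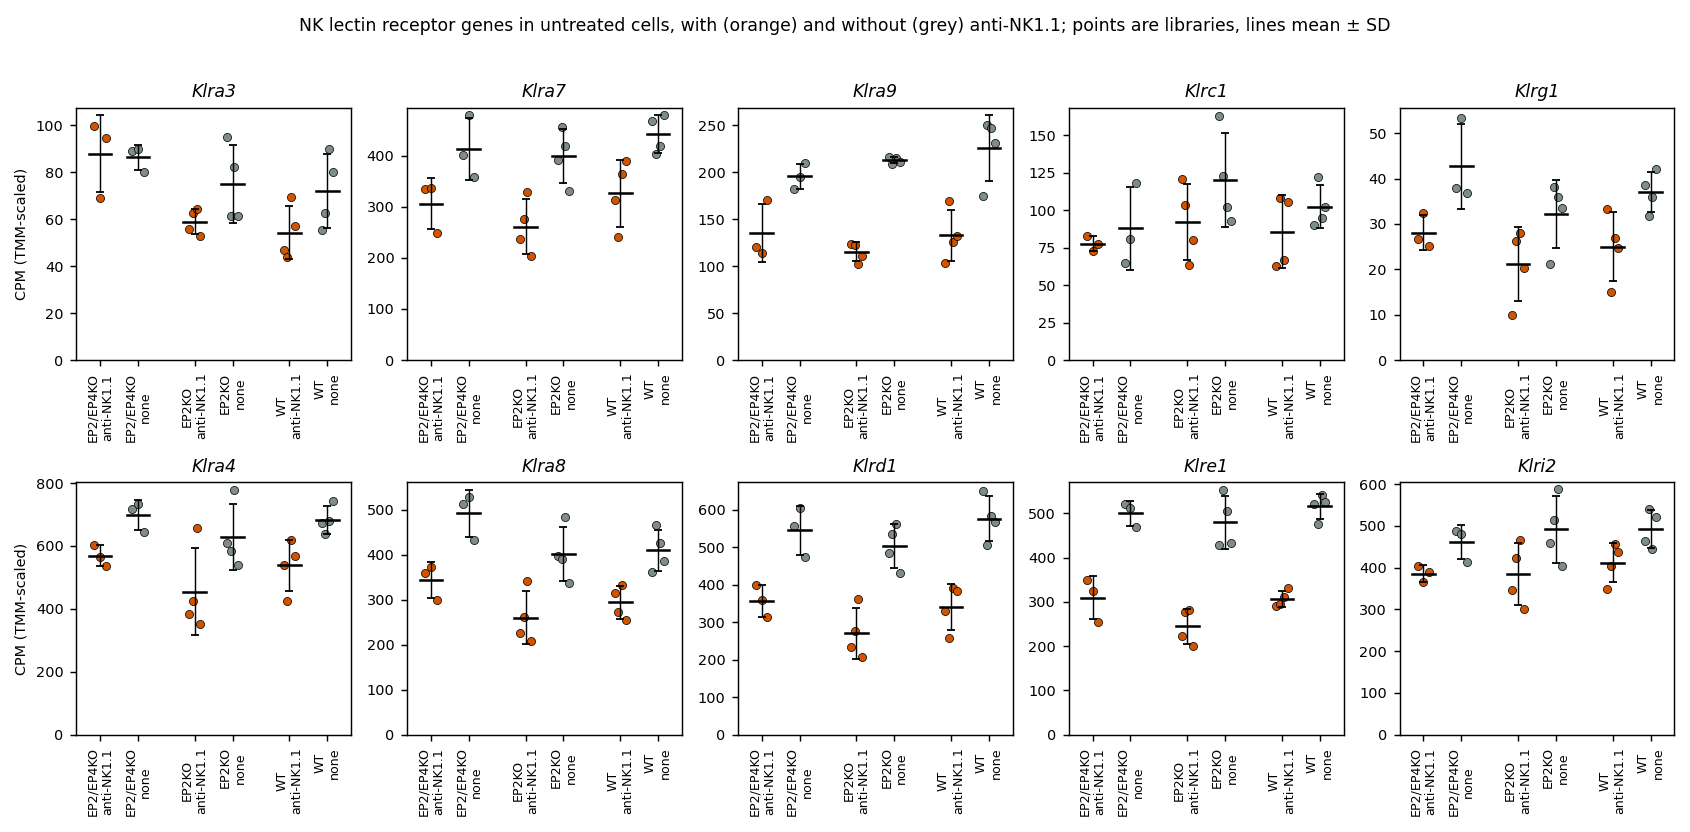
Levels of the 10 genes in untreated cells, in CPM on linear axes from 0, with 1 panel per gene, the genotypes EP2/EP4KO, EP2KO and WT from left to right, and points for single libraries with bars for the mean ± SD; anti-NK1.1-stimulated libraries are orange and stand left of unstimulated libraries in grey. For Klre1 and Klrd1 all stimulated points lie below all unstimulated points within each genotype, whereas those of Klrc1 overlap.

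In EP2/EP4KO cells, libraries with the same replicate number deviated together, so the fit with the number as a block is given beside the result. It called 8 of 10 members lower with stimulation (18.7% of all genes), against 4 without the block, and added Klra4 (-0.30, adjusted p = 0.0149), Klra7 (-0.43, adjusted p = 0.000516), Klrg1 (-0.60, adjusted p = 0.0169) and Klri2 (-0.26, adjusted p = 0.0433). In EP2KO and WT cells not all same-numbered libraries deviated together. The block called 10 and 9 members lower there, with 4355 and 5304 genes called in either direction, so the higher count is not particular to EP2/EP4KO cells. With the counts of all 14 Klra genes in the table added up, which removes the question of which Klra gene a read came from, the sum was lower in stimulated cells of every genotype. The log2 fold change of the sum was -0.40 in EP2/EP4KO cells, -0.58 in EP2KO cells and -0.43 in WT cells (adjusted p = 0.0293, 0.000198 and 0.0049, edgeR).

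Markers shared with NKT cells and type 1 innate lymphoid cells moved with this comparison. Of 8 such genes, 4 fell and 1 rose with stimulation in EP2/EP4KO cells, 6 fell in EP2KO cells and 7 fell in WT cells. Their summed level averaged 199.2 CPM (127.2 to 268.1) in stimulated and 480.6 CPM (387.8 to 591) in unstimulated EP2/EP4KO cells. In EP2KO cells it averaged 230.9 CPM (190.8 to 280.2) with and 569.7 CPM (504.8 to 712.2) without stimulation, and in WT cells 211.6 CPM (154.6 to 265.2) with and 463.5 CPM (408.7 to 557.9) without. None of these genes was at 0, and their part in the result was not tested.

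The next question is whether the lower levels were also seen when cells had been given PGE2 or CM. In EP2/EP4KO cells some members were again called lower with either treatment. With PGE2, 4 of 10 members fell with stimulation, where 14.5% of all genes fell: Klra8 (-0.41, adjusted p = 0.0474), Klra9 (-0.59, adjusted p = 0.0053), Klrd1 (-0.56, adjusted p = 0.00776) and Klre1 (-0.69, adjusted p = 0.00051). With CM, 3 members fell, where 10.7% of all genes fell: Klra8 (-0.56, adjusted p = 0.00805), Klrd1 (-0.52, adjusted p = 0.017) and Klre1 (-0.77, adjusted p = 0.000183). Klre1 had 394.2, 311.9 and 271.9 CPM in stimulated PGE2-treated EP2/EP4KO libraries, against 500.7, 555.6 and 524.9 CPM in unstimulated ones. With CM it had 371.5, 305.3 and 261.8 CPM with stimulation, against 579.1, 539.7 and 478.5 CPM without. Both pairs of groups were fully apart. Klre1 kept its calls in EP2/EP4KO cells with any 1 library left out, as did Klra9 with PGE2. Klra8 lost its call with PGE2 without unstimulated replicate 1 (-0.39, adjusted p = 0.117) or 2 (-0.30, adjusted p = 0.244) or stimulated replicate 1 (-0.41, adjusted p = 0.0937) or 3 (-0.34, adjusted p = 0.178), and with CM without unstimulated replicate 2 (-0.49, adjusted p = 0.0506). Klrd1 lost its call with PGE2 without stimulated replicate 3 (-0.44, adjusted p = 0.0783), and with CM without unstimulated replicate 1 (-0.48, adjusted p = 0.0619) or stimulated replicate 2 (-0.48, adjusted p = 0.0716) or 3 (-0.47, adjusted p = 0.0704). With CM, Klra9 passed without stimulated replicate 1 (-0.55, adjusted p = 0.025). Same-numbered libraries paired here too, and with the replicate block 6 members fell under PGE2 (18.8% of all genes), adding Klra4 (-0.25, adjusted p = 0.0464) and Klra7 (-0.34, adjusted p = 0.00643), and 5 fell under CM (14.8% of all genes), adding Klra7 (-0.30, adjusted p = 0.0231) and Klra9 (-0.41, adjusted p = 0.0103).

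In EP2KO and WT cells few members were called once PGE2 or CM was present. In PGE2-treated EP2KO cells edgeR called 0 of 10 members, where 23.5% of all genes changed, and DESeq2 called 0. At an unadjusted p under 0.05 were 3 members and 34.7% of all genes. The replicate numbers paired in this comparison, and the block called 3 members and 14.8% of all genes lower: Klra8 (-0.29, adjusted p = 0.0138), Klrd1 (-0.37, adjusted p = 0.0018) and Klre1 (-0.34, adjusted p = 0.00239). Without the block, Klrd1 passed when unstimulated replicate 1 was left out (-0.48, adjusted p = 0.0198) and Klre1 when stimulated replicate 3 was (-0.45, adjusted p = 0.0229). In PGE2-treated WT cells edgeR again called 0, where 8.29% of all genes changed, and DESeq2 called 0. At an unadjusted p under 0.05 were 1 member and 21.2% of all genes. This comparison rests on 2 unstimulated libraries. In CM-treated EP2KO cells, Klra3 rose (0.58, adjusted p = 0.0173), where 12.8% of all genes rose, and Klre1 fell (-0.42, adjusted p = 0.0223), where 10.3% fell. Klra3 lost this call without unstimulated replicate 4 (0.54, adjusted p = 0.0544), and the sum of all Klra genes was at -0.13 in the same comparison (adjusted p = 0.524). Klre1 lost its call in these cells without unstimulated replicate 2 (-0.39, adjusted p = 0.0611) or 3 (-0.34, adjusted p = 0.106), or without stimulated replicate 1 (-0.36, adjusted p = 0.0944) or 4 (-0.37, adjusted p = 0.0781). In CM-treated WT cells Klre1 fell (-0.47 ± 0.14 SE, adjusted p = 0.0137, n = 4 each), where 6.98% of all genes fell. It had 344.8, 320.2, 386.0 and 447.3 CPM in stimulated CM-treated WT libraries, against 520.6, 466.9, 547.7 and 534.9 CPM in unstimulated ones, without overlap. Without stimulated replicate 2 the WT value of Klre1 was -0.40 (adjusted p = 0.0688). The members' median log2 fold changes under PGE2 and CM were -0.38 and -0.25 in EP2/EP4KO cells, -0.10 and -0.01 in EP2KO cells and -0.04 and -0.06 in WT cells. Whether the response to stimulation under treatment differs between the genotypes was not tested. Nor was the interaction of treatment with stimulation in EP2/EP4KO cells.

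**Figure D2:**
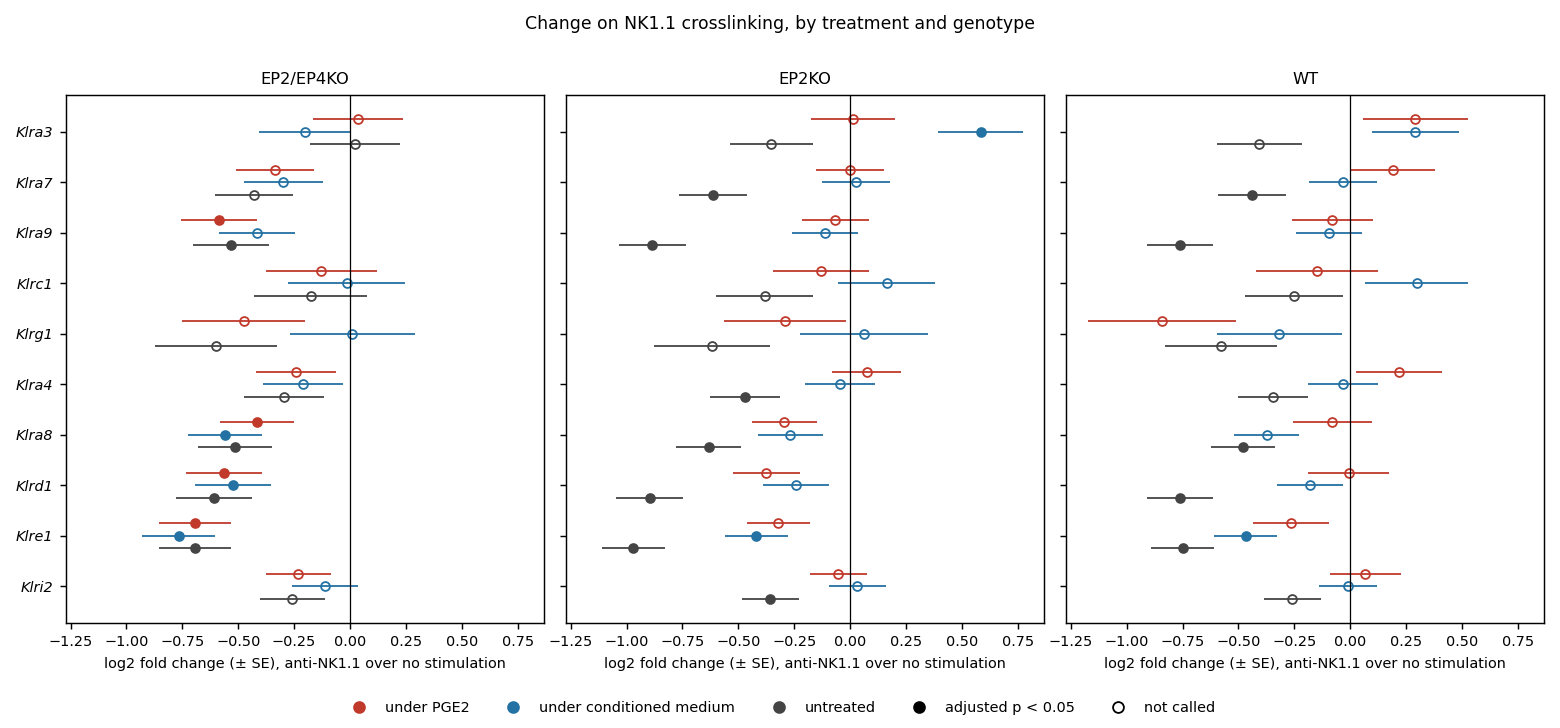
Log2 fold changes (horizontal axis, error bars ± SE) of stimulated over unstimulated cells for each of the 10 genes, in panels for EP2/EP4KO, EP2KO and WT cells, with PGE2 in red, CM in blue and untreated cells in dark grey; filled points have an adjusted p under 0.05. In EP2/EP4KO cells the 3 colours lie close together for most genes. Klrg1 is an exception, at -0.60 untreated, while with CM it averaged 34.3 CPM with and 34.2 CPM without stimulation. In EP2KO and WT cells the untreated points lie farthest to the left for most genes, as for Klre1 at -0.97 in EP2KO cells.

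Treated cells were then set against untreated cells without stimulation. The differences were small and none passed the test, but 37 of 40 values in EP2KO and WT cells were negative. The share of counts from mitochondrial genes, a sign of RNA and cell quality, moved with these comparisons. In EP2KO and WT cells it was higher in every treated library than in the untreated library of the same number and genotype. In unstimulated WT cells it was 9.34, 12.3, 11.6 and 11.3% with CM and 11.1 and 10.5% with PGE2 (replicates 2 and 4), against 7.28, 10.1, 9.61 and 8.69% untreated. In unstimulated EP2KO cells it was 12.02, 10.4, 11.6 and 12.2% with CM and 10.8, 11.2, 10.7 and 12.5% with PGE2, against 10.4, 10.4, 9.19 and 10.96% untreated. Its part in the members' values was not tested. PGE2 in EP2KO cells gave 0 of 10 calls by edgeR (3.13% of all genes changed), 3 members at an unadjusted p under 0.05 and 1 call by DESeq2 (Klri2, -0.38, adjusted p = 0.0376). CM in EP2KO cells gave 0 calls (4.43% of all genes changed), 4 members at an unadjusted p under 0.05 and 0 by DESeq2. PGE2 in WT cells gave 0 calls (2.94% of all genes changed), 4 members at an unadjusted p under 0.05 and 0 by DESeq2. CM in WT cells gave 0 calls (8.33% of all genes changed), 3 members at an unadjusted p under 0.05 and 0 by DESeq2. Of all genes, 12.4%, 15.3%, 14% and 22.8% had an unadjusted p under 0.05 in these comparisons, in this order. DESeq2 called 372 of the 10723 genes for PGE2 in EP2KO cells. The members' medians were -0.22 and -0.23 for PGE2 and CM in EP2KO cells and -0.32 and -0.28 in WT cells, beside medians within 0.01 of 0 over all genes. The PGE2 and CM comparisons share their untreated libraries, so the like medians are not separate observations.

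Klra9 in EP2KO cells had 149.2, 175.5, 159.7 and 147.6 CPM with PGE2, against 215.9, 208.9, 215.4 and 210.7 CPM in untreated cells. These groups were apart, yet the log2 fold change of -0.43 ± 0.15 (SE) had an adjusted p of 0.103 (edgeR). Replicate numbers paired in this comparison, and the block called 3 members and 2.81% of all genes lower: Klra7 (-0.34, adjusted p = 0.0131), Klra9 (-0.43, adjusted p = 0.0076) and Klri2 (-0.35, adjusted p = 0.00737). Klrd1 in WT cells had 364.2 and 438.9 CPM with PGE2, against 649.8, 505.5, 582.3 and 566.4 CPM untreated. Both PGE2-treated libraries were below all untreated ones, but the log2 fold change of Klrd1, -0.52, did not pass the test (adjusted p = 0.122, edgeR). How many of all genes had groups that lay apart in these comparisons was not counted, so such gaps are description only. The same cells responded elsewhere: Crem, a cAMP-induced repressor gene, rose by 2.22 ± 0.21 on the log2 scale with PGE2 in unstimulated WT cells (adjusted p = 6.43e-12).

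With stimulation, values were mostly higher in treated cells, and 32 of 40 differences in EP2KO and WT cells were positive. Those that passed the test were found in CM-treated EP2KO cells, where 3 of 10 members rose and 4.63% of all genes rose. Klra9 had 171.2, 163.2, 168.3 and 169.8 CPM in stimulated CM-treated EP2KO libraries, against 123.8, 122.7, 102.6 and 111.1 CPM in stimulated untreated ones (log2 fold change 0.54 ± 0.15 SE, adjusted p = 0.00934, edgeR). Klre1 had 305.4, 393.2, 397.3 and 312.1 CPM with CM, against 222.9, 276.0, 280.7 and 200.5 CPM untreated (0.52 ± 0.14, adjusted p = 0.0087). Klra3 had 91.24, 73.5, 90.75 and 90.13 CPM with CM, against 55.9, 62.44, 64.45 and 52.85 CPM untreated (0.55 ± 0.18, adjusted p = 0.0386). In all 3 genes every CM-treated library lay above every untreated one. Klra9 lost its call without untreated replicate 3 (0.49, adjusted p = 0.0507), and Klra3 lost it when any of 7 of the 8 libraries was left out, all but CM-treated replicate 2, with values of 0.50 to 0.59 and adjusted p of up to 0.105. The sum of all Klra genes, 0.33 higher with CM, did not pass (adjusted p = 0.0838). DESeq2 called 5 members, with 1098 of the 10723 genes called. Without untreated replicate 3 edgeR also called Klra4 (0.61), Klra8 (0.55) and Klrd1 (0.59). Klra8 (0.50) and Klrd1 (0.52) passed as well without CM-treated replicate 1. The markers shared with NKT cells and type 1 innate lymphoid cells moved with this comparison too, and 3 of 8 rose and 0 fell (median log2 fold change 0.61, beside 0.39 for the members). Their summed level averaged 345.8 CPM (309.2 to 451.6) in stimulated CM-treated and 230.9 CPM (190.8 to 280.2) in stimulated untreated EP2KO cells, and none was at 0. It was also higher in comparisons where edgeR without the block called no member. With stimulation it averaged 360.7 CPM in PGE2-treated EP2KO cells. In stimulated WT cells it was 347.8 CPM (PGE2) and 318.7 CPM (CM) against 211.6 CPM untreated. Without stimulation, where most member values were lower with treatment, it averaged 643 CPM (PGE2) and 629.1 CPM (CM) against 569.7 CPM in EP2KO cells. The part of these markers in the result was not tested.

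PGE2 in stimulated EP2KO cells gave 0 of 10 calls by edgeR (7.32% of all genes changed). At an unadjusted p under 0.05 were 4 members and 17.8% of all genes. Klre1 was nearest, with 263.3, 379.0, 411.3 and 258.9 CPM with PGE2, against 222.9, 276.0, 280.7 and 200.5 CPM untreated. The groups overlapped, and its log2 fold change was 0.42 ± 0.14 (SE, adjusted p = 0.0549, edgeR). DESeq2 called Klre1 (adjusted p = 0.0253) and no other member, with 774 of the 10723 genes called. Klre1 passed in edgeR without untreated replicate 3 (0.49, adjusted p = 0.0452), without PGE2-treated replicate 1 (0.52, adjusted p = 0.0214) or without PGE2-treated replicate 4 (0.52, adjusted p = 0.0216), and without untreated replicate 3 so did Klra4 (0.58, adjusted p = 0.0166) and Klrd1 (0.54, adjusted p = 0.0256). PGE2 in stimulated WT cells gave 0 calls (15.6% of all genes changed) and 0 by DESeq2. At an unadjusted p under 0.05 were 2 members and 27.3% of all genes. In that comparison the replicate numbers paired and the block called Klra4 (0.27, adjusted p = 0.0199), Klra8 (0.28, adjusted p = 0.0255) and Klre1 (0.33, adjusted p = 0.00545) higher, with 8.64% of all genes. CM in stimulated WT cells gave 0 calls (15.5% of all genes changed) and 0 by DESeq2. At an unadjusted p under 0.05 were 3 members and 27.1% of all genes. With 1 library left out, Klra9 passed in WT cells for PGE2 (0.45, adjusted p = 0.0243, without PGE2-treated replicate 1) and for CM (0.46, adjusted p = 0.0346, without untreated replicate 2).

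In EP2/EP4KO cells the same 4 treatment comparisons (PGE2 and CM, each with and without stimulation) gave 0 calls in 40 tests by edgeR, 0 by DESeq2 and 0 at an unadjusted p under 0.05. Their log2 fold changes ran from -0.32 to 0.30. Across all genes, 0% changed with PGE2 or CM in unstimulated EP2/EP4KO cells, and 0% with PGE2 and 0.0746% with CM in stimulated ones. At an unadjusted p under 0.05 were 1.73 to 6.77% of all genes.

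**Figure D3:**
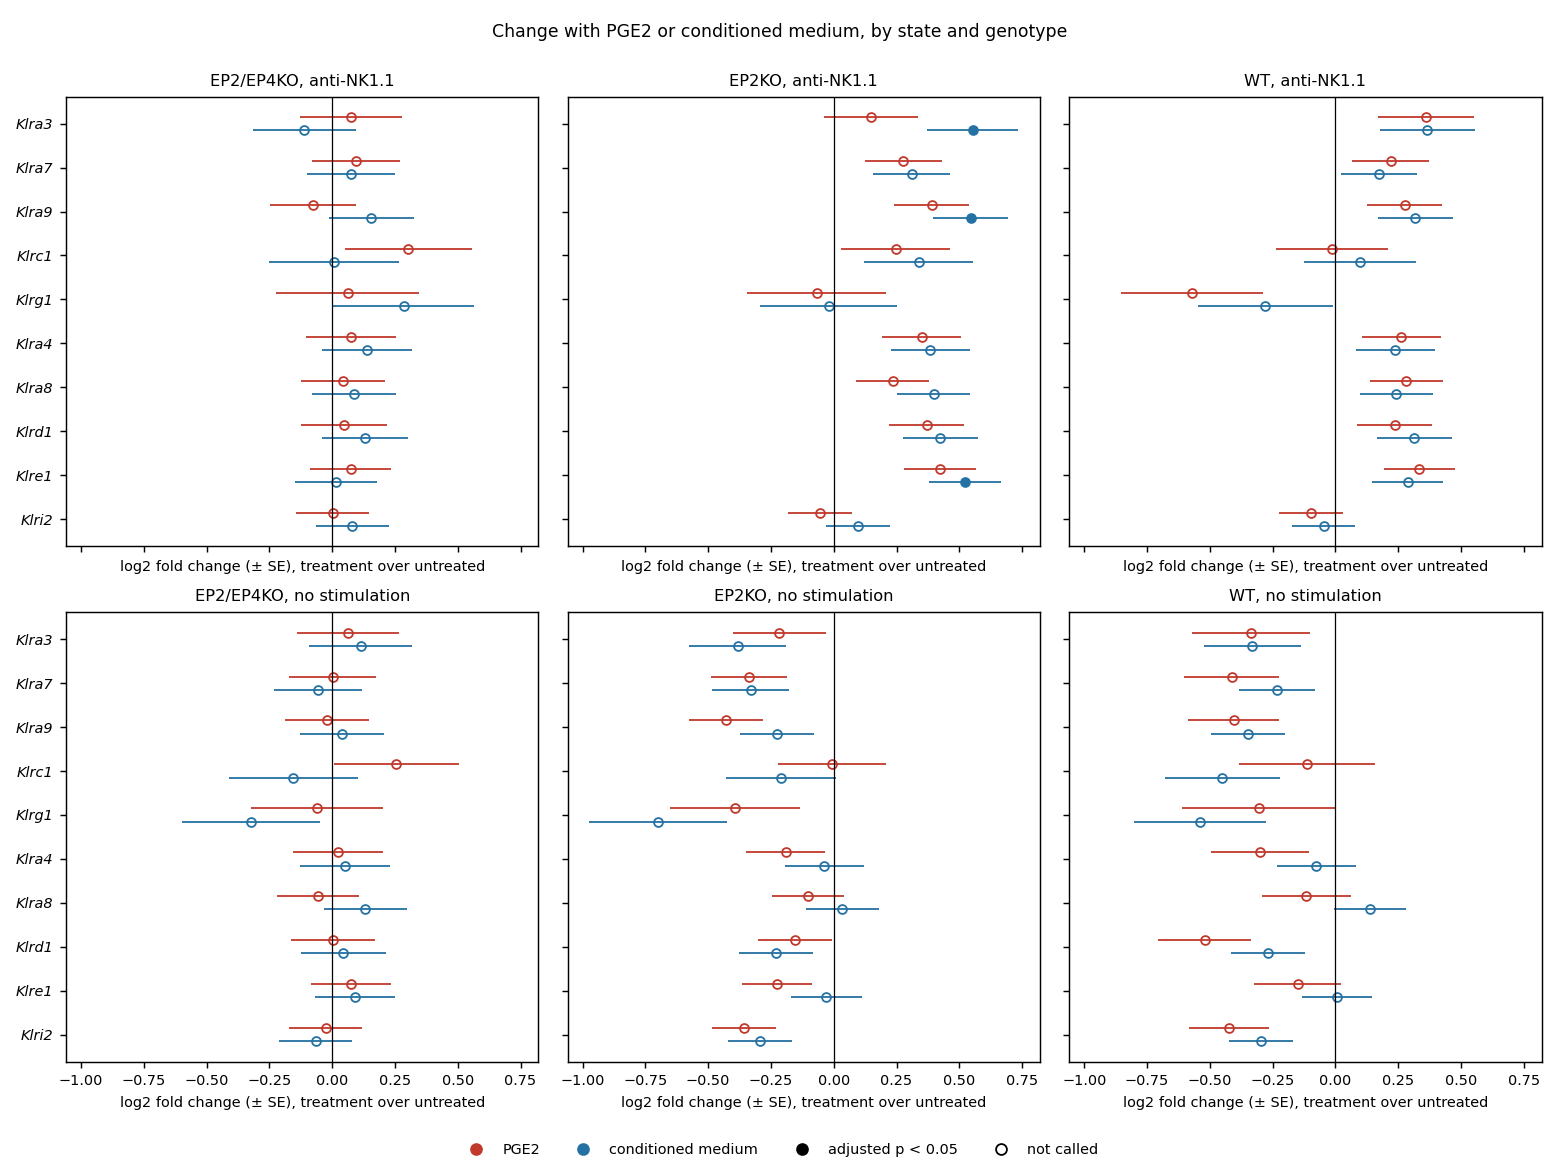
Log2 fold changes (horizontal axis, error bars ± SE) of PGE2-treated (red) and CM-treated (blue) over untreated cells for the 10 genes, in panels for EP2/EP4KO, EP2KO and WT cells with stimulation (top row) and without (bottom row); filled points have an adjusted p under 0.05. Most EP2KO and WT points lie right of 0 in the top row and left of 0 in the bottom row, and the 3 filled points are Klra3, Klra9 and Klre1 with CM in stimulated EP2KO cells.

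Whether treatment changed the response to stimulation was tested as an interaction, the log2 fold change with stimulation in treated cells minus that in untreated cells. Of 40 such values in EP2KO and WT cells 39 were positive, and none was called by edgeR without the replicate block (lowest adjusted p 0.0596). At an unadjusted p under 0.05 there were 20. Of all genes, 7.64% (PGE2, EP2KO), 8.73% (CM, EP2KO), 12.2% (PGE2, WT) and 17% (CM, WT) had such a p. DESeq2 called 8 member values, and 81, 111, 189 and 400 of the 10723 genes in the same order. By edgeR, 0.326% (PGE2, EP2KO), 0.615% (CM, EP2KO), 1.33% (PGE2, WT) and 2.2% (CM, WT) of all genes were called. The members' medians were 0.44, 0.60, 0.52 and 0.36 in these 4 comparisons. The largest was Klra3 with CM in EP2KO cells, at 0.94 ± 0.26 (SE, adjusted p = 0.0886), followed by Klra9 with PGE2 in EP2KO cells at 0.82 ± 0.21 (adjusted p = 0.0596), Klra9 with CM in EP2KO cells at 0.77 ± 0.21 (adjusted p = 0.0664) and Klrd1 with PGE2 in WT cells at 0.76 ± 0.24 (adjusted p = 0.101). Klra3 had 91.24, 73.5, 90.75 and 90.13 CPM in stimulated CM-treated EP2KO cells, against 62.36, 60.02, 55.11 and 52.37 CPM in unstimulated CM-treated ones. DESeq2 called Klra3 (adjusted p = 0.0286), Klra9 (0.0174) and Klrd1 (0.0422) with CM in EP2KO cells, Klra9 (0.0141) and Klre1 (0.035) with PGE2 in EP2KO cells, Klra9 (0.039) and Klrd1 (0.0499) with CM in WT cells and Klrd1 (0.0294) with PGE2 in WT cells. In edgeR, Klra9 passed without 1 library in 3 of the 4 comparisons: with CM in EP2KO cells without unstimulated CM-treated replicate 3 (0.88, adjusted p = 0.0383), with PGE2 in WT cells without stimulated PGE2-treated replicate 1 (0.86, adjusted p = 0.0264), and with CM in WT cells without untreated unstimulated replicate 1 (0.77, adjusted p = 0.0451) or untreated stimulated replicate 2 (0.81, adjusted p = 0.0275). These interactions are built from the same libraries as the comparisons above. The replicate numbers did not pair all libraries in these comparisons. With the replicate block 5 (PGE2, EP2KO), 6 (CM, EP2KO), 5 (PGE2, WT) and 4 (CM, WT) members were called, all positive. Over all 10723 genes the block called 172, 220, 342 and 931, in this order.

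Genotypes were then compared. Untreated EP2/EP4KO against EP2KO cells and EP2KO against WT cells, each with and without stimulation, gave 0 calls in 40 tests by edgeR and 0 by DESeq2, with 7 at an unadjusted p under 0.05. Of all genes, 0.0839% and 0.056% were called for EP2/EP4KO against EP2KO cells with and without stimulation, and 0.0839% and 0.0653% for EP2KO against WT cells. At an unadjusted p under 0.05 were 4.94 to 7.24% of all genes. The member with the highest difference was Klra3, with 99.77, 69.1 and 94.72 CPM in stimulated EP2/EP4KO cells, against 55.9, 62.44, 64.45 and 52.85 CPM in stimulated EP2KO cells (log2 fold change 0.57, adjusted p = 0.772, edgeR). Interactions of treatment with genotype gave 0 calls in 80 tests by edgeR and 0 by DESeq2, with 3 at an unadjusted p under 0.05 and a lowest adjusted p of 0.52. Of all genes, 0.942% (PGE2) and 0.373% (CM) were called with stimulation and 0.354% (PGE2) and 0.214% (CM) without it for EP2/EP4KO minus EP2KO cells. For EP2KO minus WT cells it was 0% in each case. From 2.48 to 8.51% of all genes had an unadjusted p under 0.05 in these interactions. Without the replicate block, the treatment effects were not shown to differ between genotypes for any member, although calls were made in some genotypes and not in others. With the block 1 value was called, Klre1 for CM in stimulated cells (lower, EP2/EP4KO minus EP2KO), with 162 of the 10723 genes. CM against PGE2 gave 0 calls in 60 tests by edgeR and 0 by DESeq2, where 0 to 0.00933% of all genes were called by edgeR. At an unadjusted p under 0.05 were 1 member value and 2.79 to 5.87% of all genes. The members' medians of CM against PGE2 lay between 0.02 and 0.14 in the 6 comparisons.

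Ordered over the 18 groups, the lowest mean of Klra4, Klra7, Klra8, Klra9, Klrd1 and Klre1 was that of stimulated untreated EP2KO cells. Klre1 averaged 245 ± 39.6 CPM there (SD, n = 4) and 532.4 ± 50.7 CPM in its highest group, unstimulated CM-treated EP2/EP4KO cells (n = 3), a ratio of 2.17. The next groups above its lowest were stimulated untreated WT cells (307 ± 18 CPM) and stimulated untreated EP2/EP4KO cells (309 ± 48.9 CPM). For Klre1 the 9 groups of stimulated cells were the 9 lowest, and the unstimulated groups began with PGE2-treated EP2KO cells at 411 ± 38.7 CPM. Klrd1 spanned 270 ± 67.7 to 576 ± 59.3 CPM (ratio 2.13) and Klra9 115 ± 10.1 to 225 ± 35.1 CPM (ratio 1.96), both with unstimulated untreated WT cells at the top. Among the 17 steps between neighbouring groups, the first one exceeded the larger SD of its 2 groups in Klra9, Klrd1 and Klre1, and no other step did in any member, so that neighbours in these orders mostly did not differ beyond their spread. Klrg1 had the widest span (ratio 2.55), 16.7 ± 5.08 CPM in stimulated PGE2-treated WT cells at the low end and 42.7 ± 9.32 CPM in unstimulated untreated EP2/EP4KO cells at the high end, and Klri2 the narrowest (ratio 1.34). Klrc1 ran from 74 ± 22.8 CPM in unstimulated CM-treated WT cells to 120.3 ± 31.3 CPM in unstimulated untreated EP2KO cells.

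The pattern of group means was compared with those of 7058 genes by Pearson's r over the 18 groups, as a description only, since the means share libraries and scaling. Nearest to Klre1 were Ms4a4b (0.969), Evl (0.966) and Arhgap9 (0.964), and nearest to Klrd1 were Skap1 (0.951), Myo1f (0.948) and Cdca3 (0.947). Klra9 was nearest to Ldb1 (0.951), Klra8 to Ms4a6b (0.945) and Klri2 to Cd96 (0.898). The nearest to Klra7 was Klrk1 (0.935), the NKG2D gene of the same complex, then Klrd1 (0.904) and Klra4 (0.89). Among the members, Klrd1 and Klre1 were alike (0.929), as were Klra8 and Klrd1 (0.916). Klrc1 stood apart, with -0.145 to 0.254 against the other members, and its nearest gene was Socs1 (0.888), a feedback inhibitor of cytokine signalling. The nearest to Klra3 was Nr2f6 (0.813).

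Several members differed by replicate number within a genotype, whatever the treatment. Over the 6 EP2KO groups, Klra4 averaged 503.9, 539.1, 747.8 and 488.4 CPM in replicates 1 to 4, and replicate 3 was above its group's mean in 6 of 6 groups. Klra7 averaged 302.3, 362.1, 358.8 and 266.4 CPM, with replicates 2 and 3 above and 1 and 4 below the group's mean in 6 of 6 groups. Klrc1 averaged 146.2, 118.2, 92.46 and 83.53 CPM in the same replicates, a ratio of 1.75 between the highest and the lowest. Markers of other cells differed by number as well. The summed neutrophil markers averaged 684.2, 359.8, 114.2 and 512.5 CPM in EP2KO replicates 1 to 4, the myeloid markers 151.3, 102.4, 72.71 and 121.4 CPM, the T cell markers 455.5, 548, 639.1 and 433 CPM, the markers shared with NKT cells and type 1 innate lymphoid cells 592.2, 448.3, 408.8 and 403.6 CPM, and the erythroid markers 3.467, 2.882, 3.571 and 25.63 CPM. EP2KO replicate 3 had the highest Klra4 and the lowest neutrophil markers, and the order of the 4 replicates in the NKT and innate lymphoid markers was that of Klrc1. In EP2/EP4KO cells both likenesses were seen as well, with Klra4 highest (698.4 CPM) and neutrophil markers lowest (46.59 CPM) in replicate 1. In WT cells neither was seen. There Klra4 was highest in replicate 3 (672.8 CPM) and neutrophil markers lowest in replicate 4 (59.17 CPM). Klrc1 was lowest in WT replicate 3 (77.08 CPM), and the NKT and innate lymphoid markers in replicate 4 (348.7 CPM). The part of these markers in the members' levels was not tested. Of these markers Ly6g was near 0 throughout (0 to 2.33 CPM), while Mpo ranged from 10.84 to 279 CPM over all libraries. In WT cells Klra3 averaged 51.16, 52.59, 81.83 and 70.92 CPM in replicates 1 to 4.

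**Figure D4:**
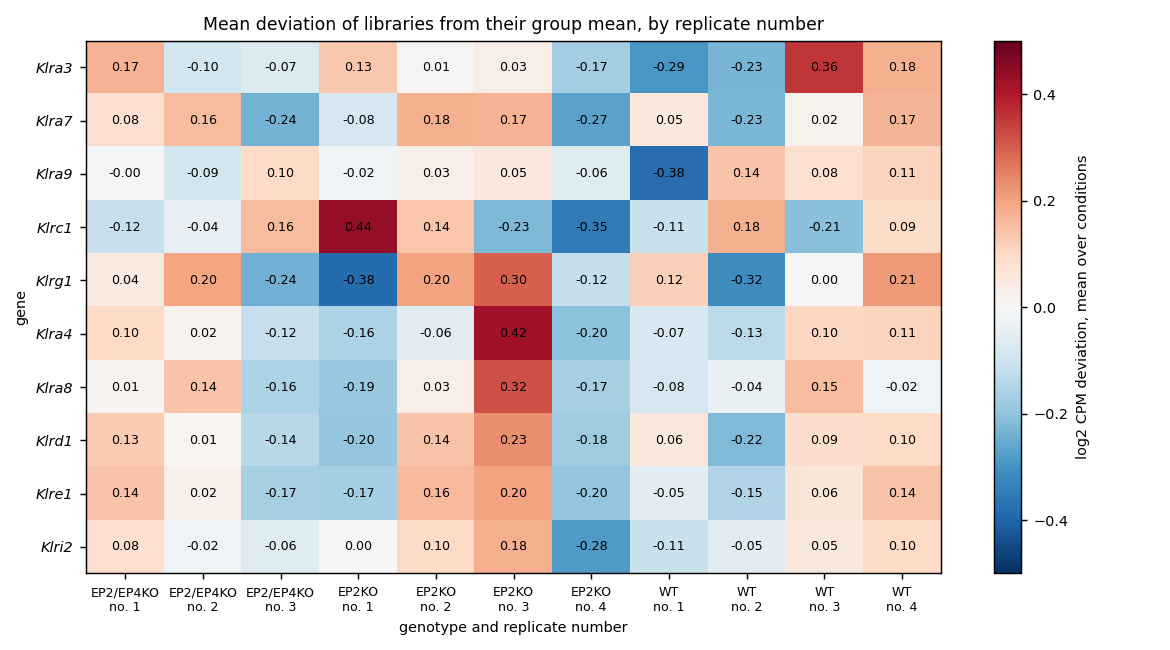
Mean deviation of each gene from its group's mean, in log2 CPM (colour scale), by genotype and replicate number, with the 10 genes as rows and 11 columns for EP2/EP4KO 1 to 3, EP2KO 1 to 4 and WT 1 to 4. EP2KO replicate 3 stands out for Klra4, with 747.8 CPM against 488.4 to 539.1 CPM in the other replicates, and Klrc1 is higher in EP2KO replicate 1 (146.2 CPM) than in replicate 4 (83.53 CPM).

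Other genes of the receptor system were read from lists. Of 14 other lectin receptor genes of the complex, 11 were tested, and with stimulation 6 fell and 1 rose in untreated EP2/EP4KO cells, 7 fell and 1 rose in EP2KO cells, and 5 fell and 1 rose in WT cells. The one that rose was Cd69, an early activation marker, with 226.3 ± 22.2 CPM in stimulated and 53.8 ± 6.65 CPM in unstimulated WT cells (SD, n = 4 each, log2 fold change 2.07, adjusted p = 1.64e-19, edgeR). Klrb1b, an inhibitory receptor for Clr-b, had the clearest fall, to 69.9 CPM in stimulated against 230.5 CPM in unstimulated WT cells (-1.72 ± 0.14 SE, adjusted p = 7.76e-16). With stimulation it was 1.26 higher on the log2 scale with PGE2 (adjusted p = 2.65e-10, 167.5 CPM) and higher with CM as well (adjusted p = 1.02e-12, 198.6 CPM) than in untreated WT cells, and its interactions of treatment with stimulation passed, at 1.19 for PGE2 (adjusted p = 0.000528) and 1.35 for CM (adjusted p = 7.11e-06). Klrb1c, the NK1.1 receptor to which the stimulating antibody binds, had 200.4 CPM in stimulated and 456.6 CPM in unstimulated WT cells (-1.19, adjusted p = 6.33e-11). In unstimulated WT cells 4 of the 11 were lower with PGE2, among them Klrb1a (-1.38, adjusted p = 1.83e-06), Klrb1c (-0.89, adjusted p = 0.000244) and Cd69 (-0.97, adjusted p = 0.00158).

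Of 8 other Klra genes, 6 were tested, and 2, 2 and 1 fell with stimulation in untreated EP2/EP4KO, EP2KO and WT cells, the last being Klra13-ps (-0.54, adjusted p = 0.00047), a pseudogene that shares part of its 3′ end with Klra7. Among 8 adaptors and kinases through which activating receptors signal, 3 fell and 1 rose in EP2/EP4KO cells, 3 fell in EP2KO cells, and 6 fell and 1 rose in WT cells, where Cd247 (the CD3 zeta chain) fell by 1.45, Syk by 0.98 and Vav1 by 0.51 on the log2 scale. Of 6 genes of inhibitory receptor signalling, 2 fell and 2 rose in EP2/EP4KO cells, 3 fell and 1 rose in EP2KO cells, and 3 fell and 1 rose in WT cells. There the kinase Fyn rose by 0.88 and Inpp5d (SHIP1) and Lck fell by 0.72 and 0.58. Ptpn6 (SHP-1), the phosphatase recruited by inhibitory Ly49 receptors and NKG2A, was lower with PGE2 in unstimulated WT cells (-1.89, adjusted p = 3.76e-11), as was Lck (-0.98, adjusted p = 0.00287). Of 7 MHC class I genes that encode ligands of these receptors, 2 rose in EP2/EP4KO cells, 1 rose in EP2KO cells, and in WT cells H2-Q7 rose (0.52) and H2-D1 fell (-0.70). Of 12 NK maturation genes, 3 fell and 3 rose in EP2/EP4KO cells, and 4 fell and 3 rose in both EP2KO and WT cells, with Zeb2 at 2.38, Kit at -1.20 and S1pr5 at -1.77 in WT cells.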

How the data were processed

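The deposited table holds raw counts per gene symbol, with 36273 symbols and 64 libraries. Per the labels' protocols, RNA was reverse-transcribed with barcoded oligo-dT primers that carry unique molecular identifiers, and 3′ ends were sequenced. Per the submitters' processing notes, GRCm38 (mm10) and DESeq2 were used. For the aligner, the counter, the annotation and whether the authors' counts are of molecules or of reads: not given in the sources used here. The members and gene lists were chosen with earlier results of these data known.

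Counts were scaled with TMM factors and tested with edgeR 4.0.16 (limma 3.58.1, R 4.3.3), using the robust quasi-likelihood test on all 64 libraries with 1 mean for each of the 18 groups. A filter on low counts (minimum count 10) left 10723 genes with 99.2092% of the counts. P-values were adjusted by Benjamini-Hochberg over these genes for each of 43 comparisons, and an adjusted p under 0.05 counts as a call. Log2 fold changes are given with SEs derived from the test statistic. Libraries held 753973 to 1693750 counts, and counting precision is lowest for Klrg1. The fit was tested on simulated data with 200 changed genes.

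Replicate numbers in the labels were checked as pairs within each genotype. Deviations from group means correlated between same-numbered libraries with median r of 0.26, 0.25 and 0.22 in EP2/EP4KO, EP2KO and WT cells, against -0.13, -0.09 and -0.07 between different numbers. The numbers were taken to pair the libraries of a comparison where it had 3 or more pairs and all had r over 0.1, and the replicate block is then given beside the result. Alternatives were DESeq2 1.42.0, its size factors in edgeR, no filter, fits of the compared groups alone, each replicate left out in turn, and all Klra counts summed. Named genes are the 10 members, up to 3 called genes per list with the smallest p in WT cells, and up to 3 genes of most similar pattern per member. No 2 replicates of a group agreed within sampling noise (chi-square per degree of freedom 1.372 to 16.32).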

Additional observations from a re-analysis of the deposited data

Results flagged for a closer look

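Of 110 groups of 4 libraries examined over the 10 genes, 5 held a library far from the other 3 by Dixon's criterion at the 95% level, which chance alone reaches in about 1 in 20 groups. Klra4 was at 758.8 CPM in replicate 3 of stimulated PGE2-treated EP2KO cells (491.5 to 535.8 CPM in the others) and at 752.4 CPM in replicate 3 of stimulated CM-treated EP2KO cells (531.6 to 555 CPM in the others). Klra3 was at 73.5 CPM in replicate 2 of stimulated CM-treated EP2KO cells (90.13 to 91.24 CPM in the others). Klrg1 was at 22.17 CPM in replicate 1 of unstimulated CM-treated WT cells (26.45 to 27.18 CPM in the others). Klri2 was at 310.6 CPM in replicate 4 of unstimulated PGE2-treated EP2KO cells (398.3 to 414.8 CPM in the others).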

How the results depend on the processing

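The count of members that fell with stimulation in untreated cells was within 1.5 times of its value under every setting except the replicate block, which called 8 in EP2/EP4KO and 9 in WT cells; in EP2KO cells the block called 10. Over all 10723 genes the block called 4121 in EP2/EP4KO, 5304 in WT and 4355 in EP2KO cells, in either direction. With stimulation under treatment the block called 21 of 60 member values, and from 1475 to 4194 genes per comparison. In unstimulated EP2KO cells it called 3 members for PGE2 (642 genes) and 3 for CM (829 genes). In unstimulated WT cells it called 4 for PGE2 (663 genes) and 4 for CM (1766 genes). In stimulated EP2KO cells it called 5 members for PGE2 (1254 genes) and 7 for CM (1695 genes). In stimulated WT cells it called 3 for PGE2 (2293 genes) and 4 for CM (2335 genes). It called 20 interactions of treatment with stimulation and 1 with genotype (Klre1, -0.51, adjusted p = 0.0414). Over all genes it called 172 to 931 per interaction with stimulation, and 162 in the genotype interaction of Klre1. Fits of the compared groups alone called 2 for CM in unstimulated WT cells, 1 for PGE2 in unstimulated EP2KO cells and 3 interactions with stimulation. Over all genes these fits called 1739, 401 and from 23 to 144 per interaction. DESeq2 called 1 for PGE2 in unstimulated EP2KO cells (372 genes). In stimulated EP2KO cells DESeq2 called 1 for PGE2 (774 genes) and 5 for CM (1098 genes). It called 8 interactions with stimulation, and from 81 to 400 genes per interaction. Its size factors in edgeR gave 1 for PGE2 in stimulated EP2KO cells (768 genes). The cause of these changes was not tested. Same-numbered pairs had r over 0.1 in 38 of 45 cases in EP2/EP4KO, 47 of 60 in EP2KO and 38 of 50 in WT cells. Comparisons where not all did, or with fewer than 3 pairs, were not taken as paired. Their median r still ran from 0.077 (CM in unstimulated EP2/EP4KO cells) to 0.32 (CM against PGE2 in stimulated EP2KO cells). Where the numbers paired, the block changed no member call beyond those in the report.

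With single replicates left out, the members called with stimulation numbered 3 to 4 in EP2/EP4KO, 5 to 8 in EP2KO and 4 to 7 in WT cells, and 8 to 11 under treatment. The treatment counts in stimulated cells were 0 to 3 (PGE2, EP2KO), 2 to 4 (CM, EP2KO), 0 to 1 (PGE2, WT) and 0 to 1 (CM, WT), the interactions with stimulation 0 to 1, and all others 0. Calls of Klre1 with CM were lost without the filter on low counts in EP2KO cells (-0.41, adjusted p = 0.0687) and WT cells (-0.44, adjusted p = 0.0517).

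Some values changed sign. With all Klra counts summed, the value that stands in for Klra3 was -0.13 (adjusted p = 0.524) for stimulation in CM-treated EP2KO cells, where Klra3 itself was called higher (0.58, adjusted p = 0.0173), and -0.40 (adjusted p = 0.0293) in untreated EP2/EP4KO cells, and that for Klra8 was -0.12 and -0.10 for CM in unstimulated EP2KO and WT cells. Klre1 for CM in unstimulated WT cells was -0.0243 without the filter. Klrc1 for PGE2 in stimulated WT cells was 0.0023 with the block and 0.0207 in the compared groups alone, and Klrg1 for CM in stimulated EP2KO cells was 0.0271 in the compared groups alone. Leaving out single replicates gave both signs for stimulation in EP2/EP4KO cells (Klra3 -0.0681 to 0.17, Klrc1 -0.36 to 0.11), for PGE2 in unstimulated EP2KO cells (Klrc1 -0.16 to 0.18) and WT cells (Klrc1 -0.33 to 0.0748, Klre1 -0.39 to 0.0508), and for CM in unstimulated EP2KO cells (Klra4 -0.19 to 0.0826, Klra8 -0.11 to 0.13, Klre1 -0.11 to 0.0456) and WT cells (Klre1 -0.0321 to 0.0515). In stimulated cells it did so for PGE2 in EP2KO cells (Klrg1 -0.31 to 0.0881, Klri2 -0.15 to 0.0514) and WT cells (Klrc1 -0.14 to 0.12), for CM in EP2KO cells (Klrg1 -0.26 to 0.14, Klri2 -0.0041 to 0.20) and WT cells (Klrc1 -0.0278 to 0.23, Klri2 -0.12 to 0.0065), and for the interaction of Klrc1 with PGE2 in WT cells (-0.0885 to 0.32). Apart from the value of Klra3 itself in CM-treated EP2KO cells, the sum in EP2/EP4KO cells alone was called among the values in this paragraph.

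Groups of 2 to 4 libraries limit these results, as do 3′ ends that near-identical Klra genes have in common, and Klrg1, with as few as 13 counts in a library, is limited by depth.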
